A study of Mus musculus with 6 samples.

Results

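The complement genes examined here, 5 components with C3 at their centre and 4 regulators, were measured in the mouse renal cortex. The 9 genes were C2, C4b, Masp1, Cfb, C3, Cfi, Serping1, Cd55 and Cd59a, and their probes were taken by the gene name printed in the array files. This gave 20 of the 56605 probes that are not controls, from 9 of the 27499 gene names on the array.

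Complement is a set of plasma and membrane proteins that tag and lyse cells in a chain of proteolytic steps. The classical and lectin pathways cleave C4 and C2, the alternative pathway uses factor B, and all of them converge on C3. Most soluble components are made by the liver, but tubular epithelium and infiltrating cells of the kidney also transcribe several of them, and host cells carry regulators that break up or block the enzyme complexes.

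RNA of the renal cortex was measured on one-colour Agilent arrays. The 6 arrays were labelled db/m (n = 3) and db/db (n = 3), and all came from male mice aged 16 weeks. The db/db mouse lacks a working leptin receptor and becomes obese and diabetic, and the db/m mouse, with 1 mutant copy, is its lean control. A treatment of 8 weeks with HQD (Huangqi decoction, a herbal formula) is stated with all samples. The paper, however, describes these arrays as HQD-treated against non-treated db/db mice, and does not name the dose given to the mice of these arrays. The source names call the groups control and model, and the treatment text speaks of the glomerular transcriptome although the tissue label is renal cortex. The conditions were therefore kept as labelled, and each log2 difference was taken as the labelled db/m mean less the labelled db/db mean. Replicate numbers come from the labels, which do not say from which animals the RNA was taken, while the paper's methods give 3 mice per group. In whole cortex, fewer cells of a type and less RNA per cell cannot be told apart.

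A probe entered the test where the scanner software marked it as well above background in 1 whole group or both, and the brightest tested probe stood for a gene. Levels are log2 of the intensity with the 75th percentile of the array set to 0, so that they place a probe among the others of its array and are not compared between genes. Between 51.6 and 59.0% of probes were well above background, and 0 probes were saturated. The array labelled db/m replicate 2 lay apart within its group: for 6 of the 9 genes it was the highest of its 3 arrays, and for the other 3 it was the lowest of all 6. The SD was larger in labelled db/m than in labelled db/db for 8 of the 9 genes. Markers of the cells that renal cortex holds passed the filter on dim probes, namely all 9 of proximal tubule, all 7 of podocytes and all 7 of thick limb and collecting duct. Slide 1 held db/m replicate 1 and db/db replicate 3, slide 2 held the other 2 arrays of labelled db/m, and slide 3 the other 2 of labelled db/db, so that a slide holding both groups allowed 1 comparison within it.

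The sequences shown are those of both Cfb probes, on which the Cfb difference rests, and of the second C4b probe and the C4a probe, which bear on how far C4b and C4a can be told apart. Those shown lie on the minus strand of chromosome 17 (build mm9) and are given in the direction of the transcript, with no letters in capitals because no part of them was singled out. The first Cfb probe covers chr17:34993502-34993858, a span of 357 bases for 60 probe bases, and thus crosses an intron. The second covers chr17:34994617-34994676. The second C4b probe covers chr17:34866361-34866420 and is shown because the array annotation assigns it to both C4b and its close copy C4a. The probe named C4a, placed at chr17:34948806-34949824, is shown for the same reason.
Cfb A_51_P413866: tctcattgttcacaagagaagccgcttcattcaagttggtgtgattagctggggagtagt
Cfb A_66_P138911: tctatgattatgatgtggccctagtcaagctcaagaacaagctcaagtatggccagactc
C4b A_51_P428708: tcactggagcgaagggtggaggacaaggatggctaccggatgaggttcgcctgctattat
C4a A_55_P2745402: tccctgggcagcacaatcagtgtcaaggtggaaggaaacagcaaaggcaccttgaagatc

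The question put to the arrays was which complement transcripts differed between the groups. Cfb, the serine protease of the alternative pathway, and C4b, which the classical and lectin pathways cleave, were lower in labelled db/m, by 0.47 and 0.43 on the log2 scale. In both genes every array labelled db/m lay below every array labelled db/db, and both probes of each gene gave the same direction. C2 was also lower, by 0.29, but its arrays overlapped. The levels of C3, Cfi, Serping1, Cd55, Cd59a and Masp1 overlapped between the groups and differed by at most 0.19.

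Of the 20 probes, 15 were tested, and all 15 were well above background on all 6 arrays. With limma, 2 of the 9 genes (22.2%) had an unadjusted p under 0.05, the p of the screen that the methods name. Among all 29889 tested probes this share was 17.7%, with 10.8% lower and 6.9% higher in labelled db/m, so the share of the complement genes was near that of the array as a whole. Both genes were lower, which is 22.2% of the 9 genes against 10.8% of all probes, and with 9 genes such a share rests on very few of them. After Benjamini-Hochberg adjustment over all tested probes, 0 of the 9 genes and 0 of the 29889 probes (0%) passed, against 5282 probes at the unadjusted p. The split of those calls depended on the scaling, with 3221 lower and 2061 higher as reported but 5773 lower and 904 higher after centring each array on its median. Arrays of the groups did not overlap for 2 of the 9 genes, both with labelled db/m below, and for 24.1% of all tested probes (16.4% below and 7.75% above). The study's screen, a log2 difference of 1 or more in size with an unadjusted p under 0.05, was met by 0 of the 9 genes and by 0.96% of probes. The median difference was -0.02 over the 9 genes and -0.03 over all tested probes.

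**Figure D1:**
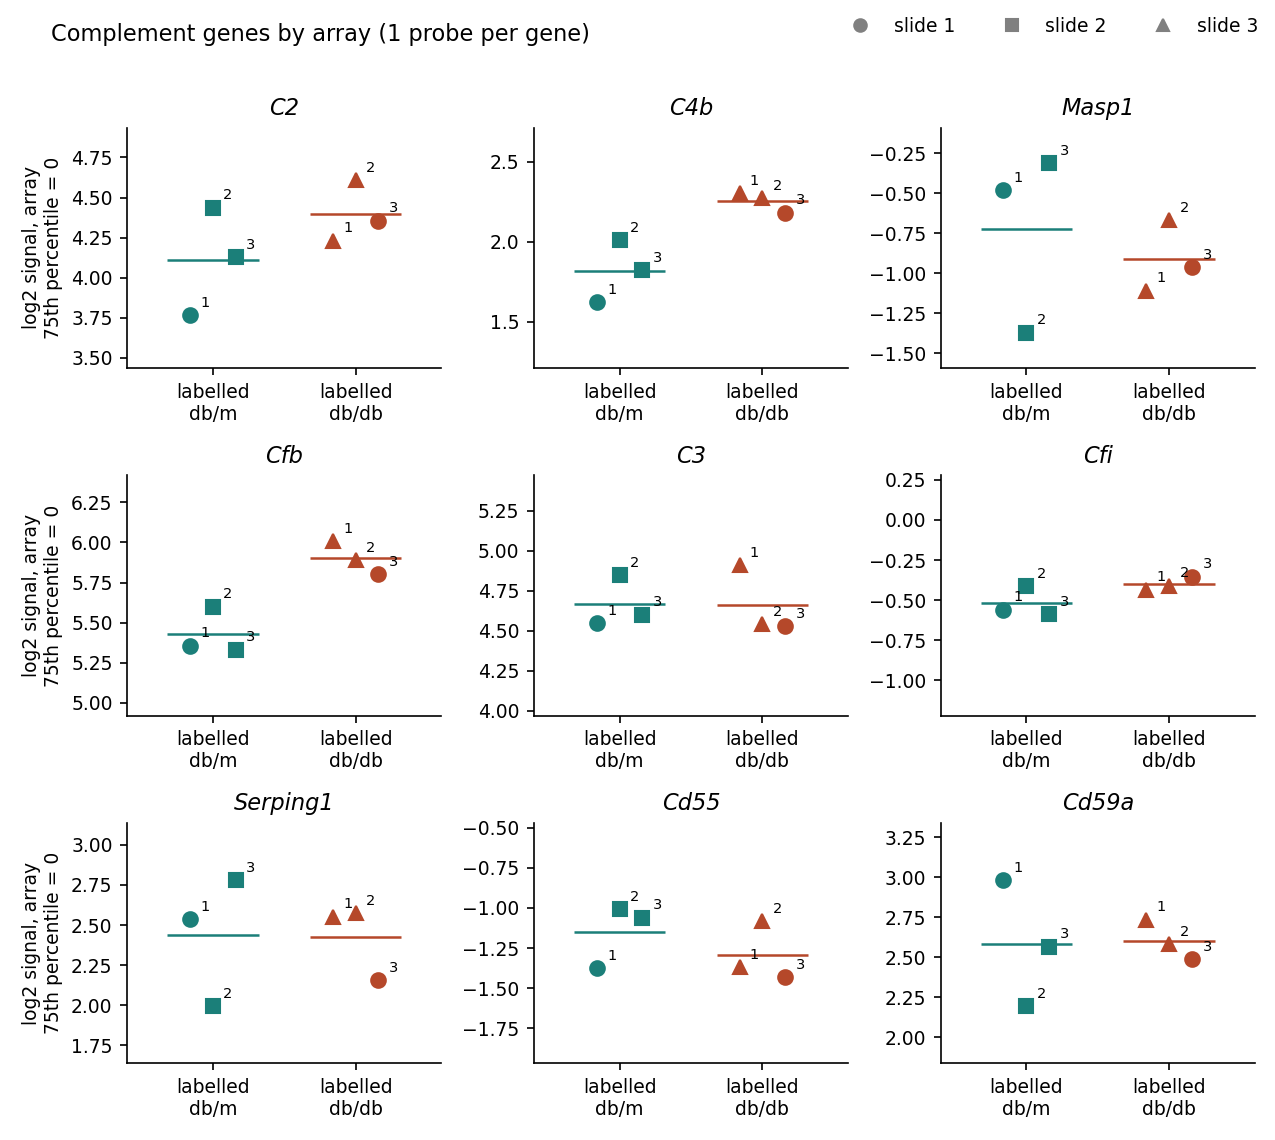
Each panel plots the log2 signal of 1 complement gene on each array (array 75th percentile set to 0), by labelled group, with points numbered by replicate, shaped by slide, and lines at the group means; all panels span the same range of 1.5 log2 units. For Cfb and C4b all 3 labelled db/m arrays lie below all 3 labelled db/db arrays, while for the other 7 genes the groups overlap.

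C4b, the component whose large fragment binds covalently to the target surface, read 1.62, 2.01 and 1.82 in labelled db/m replicates 1 to 3 and 2.30, 2.27 and 2.18 in labelled db/db. The 3 labelled db/db arrays lay close together and above all of labelled db/m, whose replicate 1 was the lowest. The difference was -0.43 ± 0.13 (SE), and labelled db/db was 1.35-fold higher (limma adjusted p = 0.240). This probe lists a C4b accession and none of C4a. The second C4b probe, printed above and assigned to both copies, read -1.18, -0.66 and -0.93 in labelled db/m and -0.21, -0.30 and -0.61 in labelled db/db. Again no array of labelled db/m reached the lowest of labelled db/db, and the difference was -0.55 ± 0.18 (SE). The probe named C4a also lists both copies, and its difference was -0.34 ± 0.22 (SE) with overlapping groups. Signal of these last 2 probes cannot be divided between C4b and C4a.

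C2, the protease that joins C4b in the C3 convertase of the classical and lectin pathways, read 3.76, 4.44 and 4.13 in labelled db/m and 4.23, 4.61 and 4.36 in labelled db/db. Replicate 2 of labelled db/m lay above 2 of the 3 labelled db/db arrays, so the groups overlapped. The difference was -0.29 ± 0.20 (SE), with a 95% interval from -0.76 to 0.18 (limma adjusted p = 0.436). Without labelled db/m replicate 2 it was -0.45 with an unadjusted p under 0.05 in limma.

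Masp1, which encodes a protease of the lectin pathway that acts with mannose-binding lectins, was measured well by 1 of its 5 probes. That probe read -0.48, -1.37 and -0.31 in labelled db/m and -1.11, -0.67 and -0.96 in labelled db/db. Labelled db/m replicate 2 was the lowest of all arrays and the other 2 of its group the highest. The difference was 0.19 ± 0.29 (SE), with a 95% interval from -0.49 to 0.88 (limma adjusted p = 0.721). Without labelled db/m replicate 2 it was 0.52 with an unadjusted p under 0.05 in limma, and without replicate 3 it was -0.01. The other 4 probes were well above background on at most 2 arrays of labelled db/m and 1 of labelled db/db and were not tested. Since the probes of this gene match different transcripts, the value holds for the transcripts this probe matches and not for the gene as a whole.

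Cfb, or factor B, supplies the catalytic part of the C3 convertase in the alternative pathway. It read 5.36, 5.60 and 5.33 in labelled db/m and 6.01, 5.89 and 5.80 in labelled db/db. The groups were apart, with the highest labelled db/m array (replicate 2) below the lowest labelled db/db array (replicate 3). The difference was -0.47 ± 0.12 (SE), with a 95% interval from -0.77 to -0.18, and labelled db/db was 1.39-fold higher (limma adjusted p = 0.240). The second probe, which lies in another part of the transcript, read 3.48, 3.74 and 3.41 in labelled db/m and 4.11, 4.04 and 3.99 in labelled db/db. Its groups were also apart, at -0.50 ± 0.12 (SE). An exact permutation test of 3 against 3 arrays cannot give a two-sided p below 0.1, so it was not used for single genes.

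C3 is the component on which the pathways converge and whose cleavage products opsonise targets. It read 4.55, 4.85 and 4.60 in labelled db/m and 4.91, 4.54 and 4.53 in labelled db/db. The arrays interleaved, with labelled db/db replicate 1 the highest and the other 2 of that group the lowest. The difference was 0.00 ± 0.15 (SE), and the 95% interval allowed a fold from 0.781 to 1.29 (limma adjusted p = 0.989). The second C3 probe gave -0.04 ± 0.18 (SE). The sign of the C3 difference turned under median centring, to -0.18, and with the mean of its probes, to -0.02. The 3 genes whose level followed that of C3 most closely over the 6 arrays, of 16458 compared, were Gosr1 (Pearson r = 0.978), Selo (0.961) and Gm5115 (0.961), which is given as a description of 6 arrays that share their scaling.

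Among the soluble regulators, Cfi encodes factor I, the protease that inactivates C3b and C4b with cofactors. It read -0.56, -0.41 and -0.59 in labelled db/m and -0.44, -0.41 and -0.35 in labelled db/db. Its values were the tightest of the 9 genes, with an SD of 0.09 in labelled db/m and 0.04 in labelled db/db. Labelled db/m replicate 2 lay within the labelled db/db range, and the difference was -0.12 ± 0.10 (SE), with a 95% interval from -0.37 to 0.13 (limma adjusted p = 0.529). Serping1 encodes C1 inhibitor, which blocks the proteases of C1 and of the lectin pathway. It read 2.54, 1.995 and 2.78 in labelled db/m and 2.55, 2.57 and 2.16 in labelled db/db, and the widest spread was within labelled db/m (SD 0.40). The difference was 0.01 ± 0.23 (SE), with a 95% interval from -0.53 to 0.55 (limma adjusted p = 0.983), and it was -0.18 after median centring and -0.02 with the slide as a random block.

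The membrane regulators were Cd55, or decay-accelerating factor, which takes apart the C3 convertases, and Cd59a, which blocks assembly of the membrane attack complex. Cd55 read -1.38, -1.01 and -1.06 in labelled db/m and -1.37, -1.08 and -1.43 in labelled db/db. Both groups held arrays at either end, and the difference was 0.15 ± 0.15 (SE), with a 95% interval from -0.22 to 0.51 (limma adjusted p = 0.601), or -0.04 after median centring. Its other 2 tested probes gave 0.43 ± 0.22 and 0.24 ± 0.23 (SE), and the last of the 4 was dim on every array. Cd59a read 2.98, 2.19 and 2.57 in labelled db/m and 2.73, 2.58 and 2.49 in labelled db/db. Labelled db/m held both the highest and the lowest array, and the difference was -0.02 ± 0.21 (SE), with a 95% interval from -0.51 to 0.47 (limma adjusted p = 0.961). Its second probe gave 0.28 ± 0.21 (SE), so the 2 probes differed in sign, and quantile normalization turned that of the first, to 0.08.

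**Figure D2:**
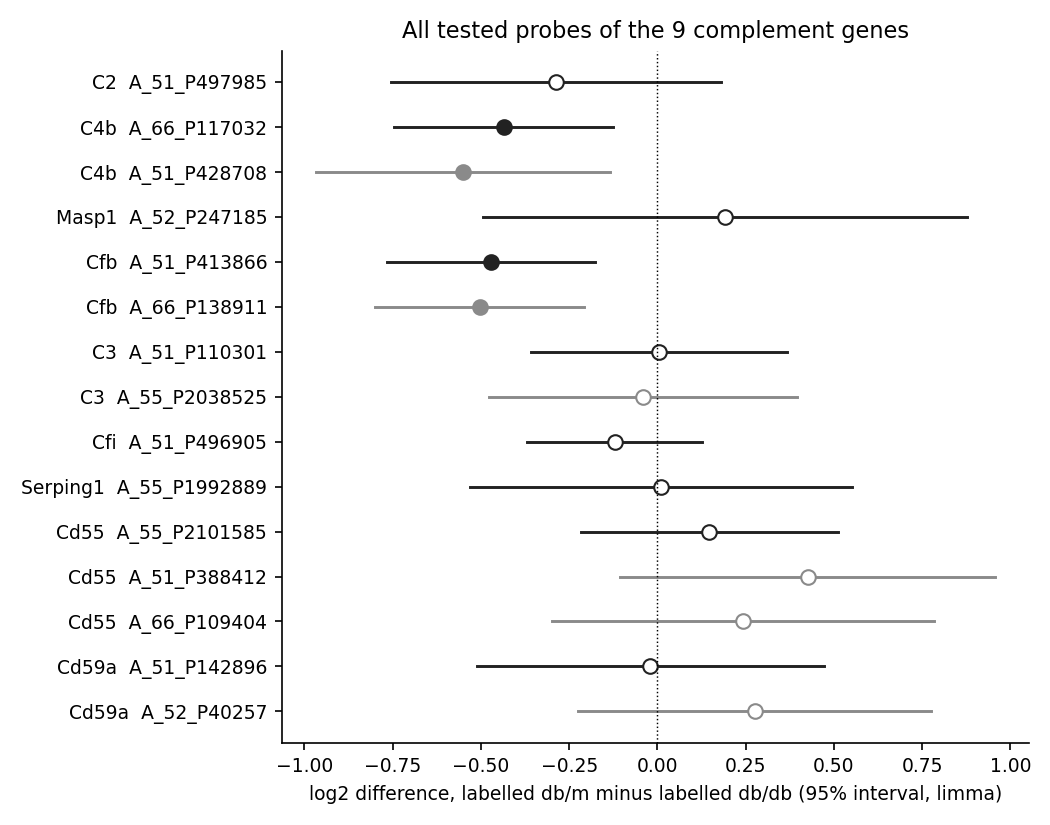
Points give the log2 difference (labelled db/m minus labelled db/db) of each of the 15 tested probes with its 95% interval from limma, black for the probe that stands for the gene and grey for the others, filled where the unadjusted p was under 0.05. The 4 filled points are the 2 Cfb and 2 C4b probes, between -0.43 and -0.55, and the interval of each of the other 11 probes includes 0.

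The direction of Cfb and C4b was the same under all 18 alternatives run. The Cfb difference ranged from -0.28 after quantile normalization to -0.66 after median centring, and the C4b difference from -0.34 to -0.62. Median centring moved the median of all tested probes from -0.03 to -0.21. Relative to that median Cfb stood at -0.44 and C4b at -0.41, which is the same by arithmetic under both scalings. After quantile normalization they stood at -0.27 and -0.34 relative to the median of all tested probes. On the slide that held both groups, labelled db/m replicate 1 minus labelled db/db replicate 3 was -0.45 for Cfb, -0.56 for C4b and -0.59 for C2. With the slide as a block the fit gave these same differences, since slides 2 and 3 each held 1 group, and it took its spread from the pairs of arrays on those slides. The unadjusted p of limma was then 0.0998 for Cfb and 0.0365 for C4b, and both rest on 1 array per group. On the same slide the values were 0.48 for Masp1, 0.02 for C3, -0.21 for Cfi, 0.38 for Serping1, 0.05 for Cd55 and 0.49 for Cd59a.

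**Figure D3:**
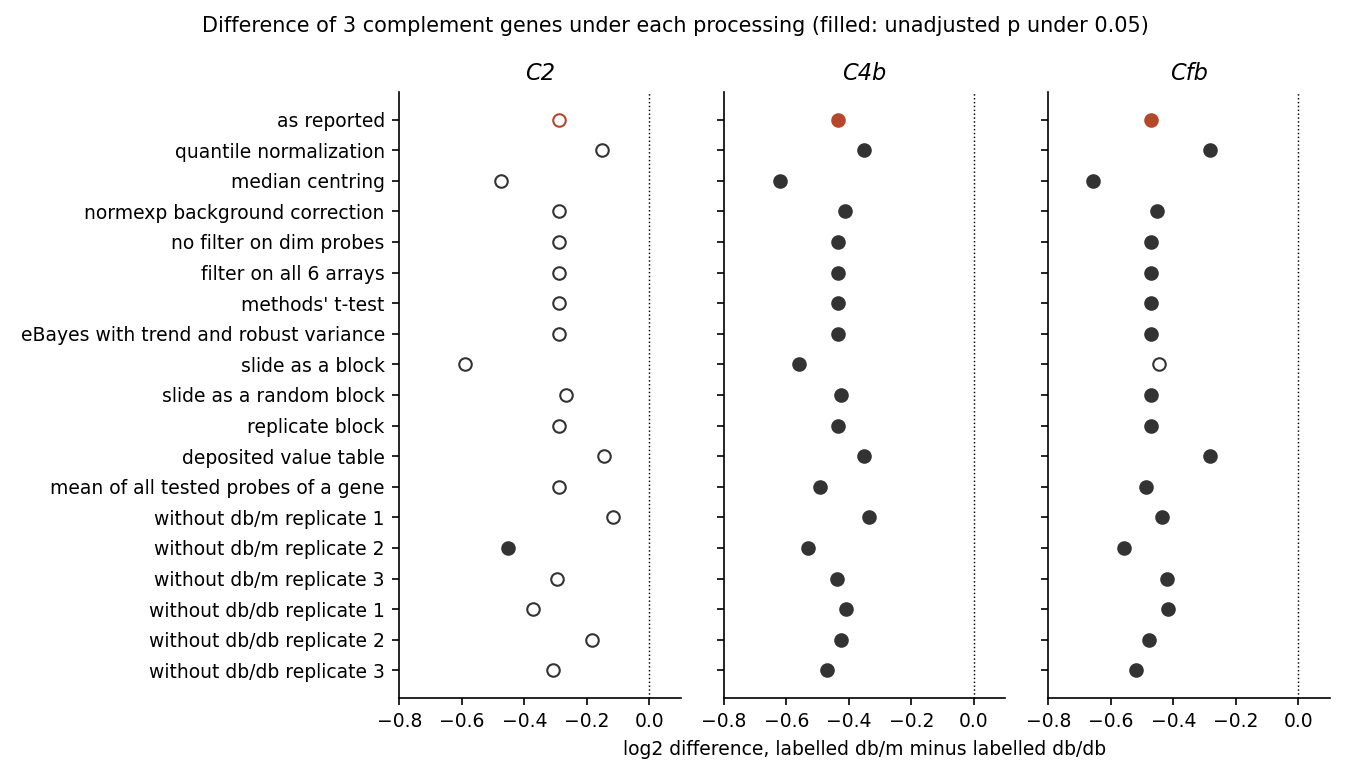
Points give the log2 difference (labelled db/m minus labelled db/db) of C2, C4b and Cfb as reported and under the 18 alternatives, filled where the unadjusted p was under 0.05. All points lie below 0; C4b is filled throughout, Cfb is open with the slide as a block, and C2 is filled only without db/m replicate 2.

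Cfb and C4b varied together over the 6 arrays (Pearson r = 0.957), and the correlation was 0.794 once the mean of each group was removed. C2 followed C4b at 0.804 and Cfb at 0.648, or 0.818 and 0.450 without the group means. Cfi, on chromosome 3, followed C4b at 0.806 and Cfb at 0.803, or 0.532 and 0.526 without the group means. Masp1 followed Serping1 at 0.811, both being lowest on labelled db/m replicate 2 and highest on replicate 3 of that group. Other pairs were as strong or stronger without the group means. Cfb stood at 0.89 with C3 and -0.85 with Masp1, and C2 at 0.895 with Cd55 and -0.896 with Cd59a. C4b stood at -0.82 with Cd59a, and Cfi at -0.97 with Serping1. Cfb, C4b, C2 and Cfi were thus not set apart from the rest by these values. All of these are descriptions of 6 arrays that share their scaling and, in pairs, their slides.

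C2, Cfb and C4b lie in one stretch of the class III region of the mouse major histocompatibility complex. Their probes span chr17:34865367-34999634 (mm9), or 134 kb. The genes between them were set out because of their position, after the values of Cfb and C4b had been seen. Besides C4a, 5 such genes were tested, and 4 of them were lower and 1 higher in labelled db/m, with a median of -0.19. None of the 5 had an unadjusted p under 0.05 by its brightest probe. For Nelfe every labelled db/m array lay below every labelled db/db array by that probe, as for 16.4% of all tested probes. The values were -0.19 ± 0.12 for Stk19, -0.23 ± 0.13 for Dxo, -0.01 ± 0.11 for Skiv2l, -0.22 ± 0.11 for Nelfe and 0.28 ± 0.29 (SE) for Cyp21a1. A dimmer Dxo probe had an unadjusted p under 0.05, at -0.31 ± 0.13 (SE), while the other dimmer probe read 0.03 ± 0.19 (SE). The groups were also apart for the first of these, and for the dimmer Skiv2l probe, at -0.18 ± 0.11 (SE). Whether Cfb and C4b differed from these neighbours was not tested.

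**Figure D4:**
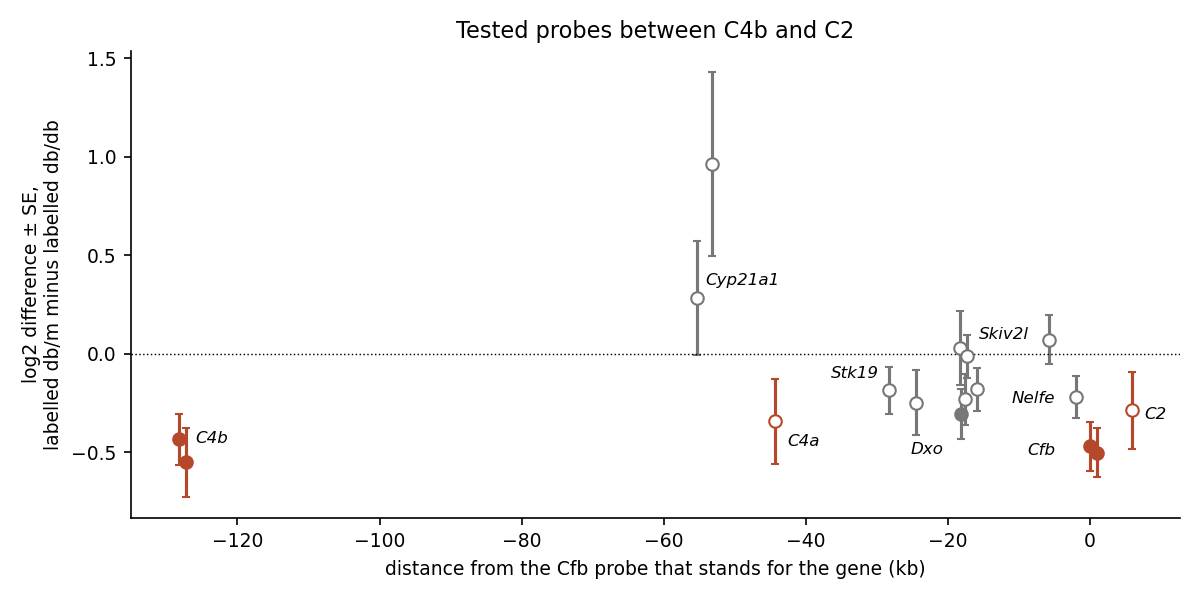
Points give the log2 difference (labelled db/m minus labelled db/db) with its SE for each tested probe from C4b to C2, by distance in kb from the Cfb probe, red for complement genes and grey for others, filled where the unadjusted p was under 0.05, with names beside the probes that stand for genes. The Cfb and C4b probes lie at -0.43 to -0.55, most of the probes between them at -0.34 to 0.07, and the 2 of Cyp21a1 at 0.28 and 0.96.

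Because liver and tubule are known sources of these proteins, markers of other cell types were set beside Cfb and C4b. Of 7 hepatocyte markers, 5 were tested and all 5 were lower in labelled db/m. For 2 of them the unadjusted p was under 0.05, against the 10.8% of all tested probes called lower. They were Fgb, a chain of fibrinogen, at -1.03 ± 0.18 and Cyp2e1, a cytochrome P450 that kidney also makes, at -0.64 ± 0.17 (SE). The mean level of the 5 tested hepatocyte markers was 1.82 to 2.08 in labelled db/m and 2.45 to 2.54 in labelled db/db. Alb, the albumin gene, read -0.26 ± 0.27, Ttr, or transthyretin, -0.32 ± 0.35 and Serpina1a -0.47 ± 0.24 (SE), each with overlapping groups. Apoa1 and Ahsg were too dim to be tested. The mean over the 5 hepatocyte markers joins probes at unlike levels. In labelled db/m the group means were 7.27 for Serpina1a and 7.06 for Cyp2e1, but 0.48 for Alb, -2.30 for Ttr and -2.76 for Fgb. Whether these signals came from hepatocytes was not tested. All 9 proximal tubule markers were lower, 1 of the 9 with an unadjusted p under 0.05, which is near the 10.8% of all tested probes. Their mean level was 6.64 to 7.36 in labelled db/m and 7.21 to 7.40 in labelled db/db. The part of either list in the values of Cfb and C4b was not tested.

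The rest of the pathway was described by a list of 48 other complement genes, of which 47 had a probe and 28 were tested. In limma, 7 of the 28 (25.0%) had an unadjusted p under 0.05, 2 lower and 5 higher in labelled db/m, against the 10.8% and 6.9% of all tested probes, and 0 passed the adjustment. The median difference was 0.04, against -0.03 over all tested probes.

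In the lectin and terminal pathways, Mbl1 and C8g were lower and C8a was higher in labelled db/m. Mbl1, a mannose-binding lectin that starts the lectin pathway, read -2.48, -2.48 and -2.44 in labelled db/m and -1.57, -1.82 and -2.09 in labelled db/db. The groups were apart and the difference was -0.64 ± 0.15 (SE). The other 2 tested lectin genes, Mbl2 and Colec11, read -0.45 ± 0.22 and -0.48 ± 0.33 (SE). C8g, the gamma chain of component C8, was lower too, at 2.63, 2.72 and 2.80 against 3.05, 3.27 and 3.13. Its difference was -0.43 ± 0.11 (SE). With the slide as a block, which rests on 1 array per group, the differences were -0.39 ± 0.21 for Mbl1 and -0.50 ± 0.21 (SE) for C8g, and the unadjusted p of limma was 0.129 and 0.061.

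C8a, the alpha chain of the same component, was higher in labelled db/m. It read -1.32, -1.75 and -1.92 in labelled db/m and -3.23, -2.87 and -2.61 in labelled db/db. All labelled db/m arrays were above all labelled db/db arrays, the difference was 1.24 ± 0.22 (SE), a fold of 2.36, and the limma adjusted p was 0.240. Its unadjusted p stayed under 0.05 in all 18 alternatives, with differences from 0.79 to 1.38. These values rest on 1 probe, since the other C8a probe was dim on every array and was not tested. The tested probe lies at chr4:104488479-104488538 (mm9), 3.00 Mb from the last of the 6 probes of Lepr. Lepr is the leptin receptor gene, which carries the db mutation. Whether the position of C8a has a part in its difference was not tested.

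Of the 9 receptor genes, 5 were tested and all 5 were higher in labelled db/m. For 2 of the 5 (40.0%) the unadjusted p was under 0.05, against 6.9% of all tested probes called higher, a share resting on very few genes. Itgam, the alpha chain of complement receptor 3 on myeloid cells, read 4.55, 3.95 and 4.09 in labelled db/m and 3.47, 3.41 and 3.62 in labelled db/db, a difference of 0.70 ± 0.17 (SE). This probe, at chr7:135261755-135261814 on the plus strand (mm9), opens with 10 copies of CA, shown here in capitals within its first 30 bases because a repeat of this kind occurs at many places in the genome.
Itgam A_55_P1977934: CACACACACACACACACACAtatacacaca
The other tested Itgam probe gave 0.17 ± 0.53 (SE), and with the mean of both the unadjusted p of limma was 0.147. Cr2, complement receptor 2 of B cells and follicular dendritic cells, gave 0.43 ± 0.14 (SE) and its second probe -0.11 ± 0.16 (SE). Of the 8 classical pathway genes tested, C1qc, a chain of C1q that macrophages make, was the 1 with an unadjusted p under 0.05 and gave 0.35 ± 0.12, while C1qa and C1qb gave -0.03 ± 0.10 and 0.14 ± 0.13 (SE). With the slide as a block the differences were 0.10 ± 0.21 for Cr2 and 0.13 ± 0.20 (SE) for C1qc (unadjusted p of limma 0.661 and 0.531), and after median centring they were 0.24 and 0.17 (0.210 and 0.357). As reported, all 10 macrophage and myeloid markers were higher in labelled db/m. For 4 of them (Adgre1, Lyz2, Cd14 and Ptprc) the unadjusted p was under 0.05, against the 6.9% of all tested probes called higher. Median centring lowered every difference by the same amount, and the median of all tested probes moved from -0.03 to -0.21. The differences of Mrc1, Tyrobp and Fcer1g, 0.03, 0.17 and 0.18 as reported, thus turned below 0. The mean level of the 10 markers was 0.18 to 0.38 in labelled db/m and -0.15 to 0.02 in labelled db/db. Their part in the values of Itgam, Cr2 and C1qc was not tested.

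Among regulators outside the 9 genes, Cd59b, the second mouse copy of Cd59, gave 0.90 ± 0.32 (SE). It read -0.20, -1.25 and -0.18 in labelled db/m and -1.50, -1.70 and -1.13 in labelled db/db, and the groups overlapped through labelled db/m replicate 2. The unadjusted p of limma was above 0.05 when either of the other 2 labelled db/m arrays, labelled db/db replicate 1 or replicate 2 was left out, and likewise when the slide entered as a block, at 0.93 ± 0.51 (SE). The 5 brightest of the remaining genes were without a call, and 4 of them are given here. Clu, or clusterin, an inhibitor of the membrane attack complex, gave -0.31 ± 0.24, and Cr1l, or Crry, a rodent membrane regulator, -0.10 ± 0.10 (SE). Cpn1, which trims the anaphylatoxins, gave -0.36 ± 0.19, and Cd93, a C1q-related receptor, 0.21 ± 0.20 (SE).

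**Figure D5:**
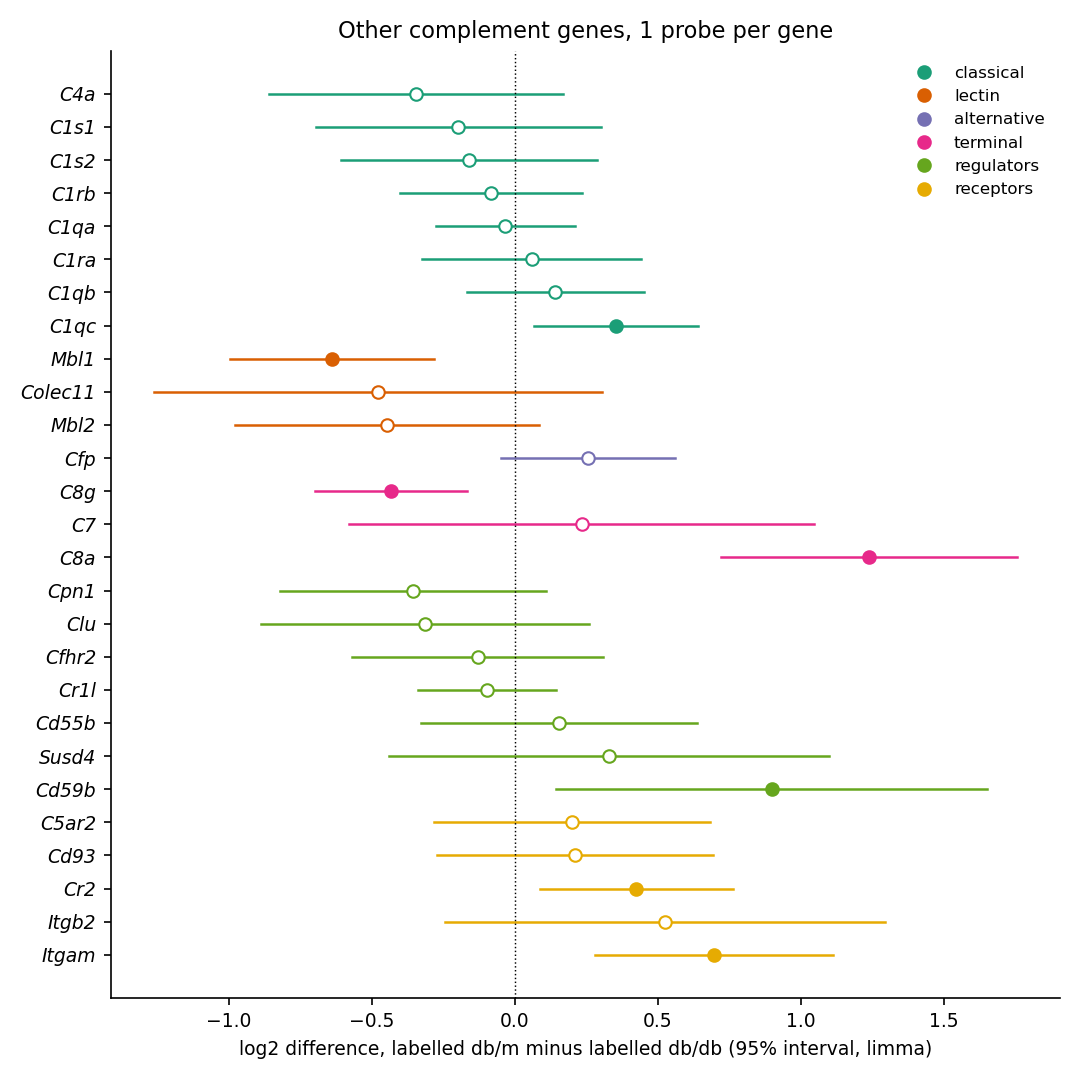
Points give the log2 difference (labelled db/m minus labelled db/db) of the tested genes of the rest of the pathway (1 without a call is left out) with its 95% interval from limma, coloured by role and filled where the unadjusted p was under 0.05. The filled genes are Mbl1 and C8g below 0 and C8a, Cd59b, Itgam, Cr2 and C1qc above 0, from -0.64 to 1.24.

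Of the 48 genes, 19 with a probe were not tested, because no probe of theirs passed the filter on dim probes. They include the lectin genes Masp2, Fcna, Fcnb and Colec10, the terminal components Hc, C6, C8b and C9, factor D (Cfd), and the anaphylatoxin receptors C3ar1 and C5ar1. For these genes the arrays give no difference.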

How the data were processed

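Spot intensity was deposited by the authors in a scanner file for each array (62976 spots, 56605 probes that are not controls), read by Agilent Feature Extraction 10.7.1.1 per the submitters' processing notes. A table of log2 values was deposited as well, made by a method not given in the sources used here, and its columns correlated with the log2 intensity of their own arrays at 0.998 or more and had medians of 6.11. The intensities in the scanner files were already background-subtracted by that software. Here 135 probes flagged as outliers were dropped, repeated spots were averaged, and log2 intensity minus the 75th percentile of each array was tested with lmFit and eBayes of limma 3.58.1 (R 4.3.3), with Benjamini-Hochberg adjustment over the 29889 probes marked as well above background in 1 whole group or both. SE and 95% intervals come from that fit, and the SD is over the 3 arrays of a group. The number of arrays limits the precision. The fit was tested on simulated data. Alternatives were other scalings and background correction, other filters, the methods' t-test, robust variance, the slide or the replicate number as a block, the deposited table, the mean of probes and leaving out each array. All 9 genes and all their probes were named, and so were the other complement genes with an unadjusted p under 0.05 and the 5 brightest of the rest, and the 3 genes most like C3. Mbl2, Colec11, C1qa, C1qb and the genes between C4b and C2 were added after their values were seen. A gene of the list of other complement genes is counted but not reported here. The members and lists were chosen with earlier results of these data known. Coordinates are those of the array files (mm9).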

Additional observations from a re-analysis of the deposited data

How the results depend on the processing

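The count of complement genes with an unadjusted p under 0.05 was 2 as reported and under each alternative except the slide as a block (1) and leaving out arrays (2 to 4, the 4 without labelled db/m replicate 2). For the other complement genes it was 7 as reported and 4 to 10 on leaving out arrays. The 4 came when labelled db/m replicate 3 or labelled db/db replicate 2 was left out. That count was 5 with the mean of probes, 6 with the methods' t-test and 9 with median centring. Quantile normalization, the replicate block and the deposited table gave 8. The other alternatives gave 7, apart from the slide as a block, which rests on 1 array per group. The median over the 9 genes turned to 0.075 with quantile normalization, 0.017 with the slide as a block and 0.073 in the deposited table, and ranged from -0.10 to 0.046 on leaving out arrays. The median over the other genes was -0.15 with median centring, -0.17 with the slide as a block and 0.11 with the mean of probes, and ranged from -0.063 to 0.072 on leaving out arrays. C3 read -0.18 with median centring, -0.019 with the mean of probes and -0.087 to 0.13 on leaving out arrays. Cd55 read -0.040 with median centring. Cd59a read 0.075 with quantile normalization, 0.49 with the slide as a block, 0.073 in the deposited table, 0.13 with the mean of probes and -0.22 to 0.17 on leaving out arrays. Serping1 read -0.18 with median centring, -0.015 with the slide as a random block and -0.16 to 0.23 on leaving out arrays, and Masp1 -0.014 to 0.52 on leaving out arrays. C2, C4b, Cfb and Cfi kept their direction in all 18 alternatives. The cause of these changes was not tested.

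The labels do not say whether the replicate numbers pair the arrays, and the main fit did not pair them. Same-numbered arrays of the groups correlated in their deviations at 0.35, 0.15 and 0.05, and differently numbered ones at -0.34 to 0.15. With 3 arrays per group these values cannot decide whether the arrays were paired. With the replicate block the counts were 2 and 8, and no complement gene of the 9 gained or lost a call. With the methods' t-test 4617 probes had a p under 0.05 and 0 after adjustment, and 2 of the 9 genes had one. After adjustment, limma called 0 probes as reported, 222 once labelled db/m replicate 2 was left out, 129 on leaving out labelled db/db replicate 3 and 10 on leaving out labelled db/m replicate 1, and none of the 9 genes passed in any of these. At the unadjusted p, limma called 5282 probes as reported, 2902 with the slide as a block and 6560 with the replicate block. On leaving out arrays it called 2320 to 7361. With 3 arrays per group, where an interval includes 0 it bounds the size of difference these arrays allow.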
